A study of Mus musculus with 12 samples.

Results

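The genes described here are 10 core circadian clock genes of the mouse, chosen by name: Arntl, Clock, Npas2, Per1, Per2, Per3, Cry1, Cry2, Dbp and Bhlhe40. They are 10 of the 21887 coding genes in the gene table, and a peak was linked to one of them when its summit lay within 50 kb of the span of the gene. Binding near them was read from peak lists of 2 hormone receptors, ERα (for estrogen, the product of Esr1) and PR (for progesterone). The lists came from ChIP-seq, which sequences the DNA that an antibody pulls down with a protein from fixed chromatin. The tissue was whole mammary gland, so a peak does not show which cell type it came from, and more cells of a type and more binding per cell cannot be told apart, although the series title speaks of luminal cells. The mice carried either wild-type Esr1 (WT) or Esr1 with Y541S, a change in the ligand-binding domain of ERα. The labels of the 8 libraries used here name no other allele. All of the mice were raised to 8 weeks, were given implants of E2 (estradiol) and P4 (progesterone), and gave their glands 4 days later. There was no group without implants, so every value below is from hormone-treated mice. Each receptor had 2 biological replicates in each genotype, 8 libraries in all. The labels do not give the number of animals or the time of day behind a replicate, and p-values measure only the spread between these libraries. D542G, another Esr1 allele of the series, is not analysed here.

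The circadian clock is a feedback loop of transcription. Arntl (also called Bmal1) forms a dimer with Clock, or with its relative Npas2, which binds E-box sequences and activates the Per and Cry genes. The PER and CRY proteins then return to repress that dimer. Dbp is an E-box-driven output that itself activates genes through D-box sequences, and Bhlhe40 (also called Dec1) is a repressor that competes for E-boxes. ERα and PR are hormone-activated nuclear receptors, which bind inverted repeats of short half-sites in DNA.

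The 8 lists held 64488 to 113695 peaks, and all deposited −log10 p values were 2 or higher, so the lists include weak peaks. Background coverage, a measure of depth, was lowest (0.927) and highest (2.68) in the 2 WT PR libraries. For ERα, 138 and 133 peaks in the WT replicates and 179 and 159 in the Y541S replicates lay in the windows of the 10 clock genes. For PR the numbers were 154 and 154 in WT and 194 and 158 in Y541S. The clock genes thus took between 0.151% and 0.206% of every list, and the highest share was that of the shortest list. Between 9.74% (WT PR replicate 1) and 17.6% (Y541S ERα replicate 2) of the clock-gene peaks ranked in the strongest 10% of their own list.

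Start sites and their upstream sequence were taken from RefSeq (GRCm38.p6, the assembly behind mm10), where 8 of the 10 genes had an entry, with 12 windows of 250 bases before to 50 bases after a start. Summits of both receptors lay within 1 kb of a start in all 8 libraries at 6 of the 8 genes (Per1, Per3, Cry1, Cry2, Arntl and Dbp). The upstream sequences of 4 of the 6 are printed: those of Per1, Cry1 and Per3 because they hold an E-box or a D-box, and that of Arntl because the ERα region at its start ranked high. The windows of Cry2 and Dbp, which are not printed, held neither motif. Each is written 5′ to 3′ on the strand of its gene, and capitals mark an E-box (CACGTG) or a D-box (TTATGNAA). The windows are chr11:69098699-69098948 on the plus strand for Per1, chr10:85185055-85185304 on the minus strand for Cry1, chr4:151044666-151044915 on the minus strand for Per3 and chr7:113207215-113207464 on the plus strand for Arntl.
Per1: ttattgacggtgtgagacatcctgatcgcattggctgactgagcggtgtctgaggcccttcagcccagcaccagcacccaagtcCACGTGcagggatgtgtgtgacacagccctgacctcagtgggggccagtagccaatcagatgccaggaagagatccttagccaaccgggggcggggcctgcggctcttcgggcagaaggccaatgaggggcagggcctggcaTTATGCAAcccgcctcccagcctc
Cry1: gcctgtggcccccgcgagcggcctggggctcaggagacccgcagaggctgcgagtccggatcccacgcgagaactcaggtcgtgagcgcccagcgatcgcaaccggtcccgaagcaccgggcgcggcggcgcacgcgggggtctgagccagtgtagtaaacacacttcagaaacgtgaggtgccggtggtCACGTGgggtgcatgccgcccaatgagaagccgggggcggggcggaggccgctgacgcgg
Per3: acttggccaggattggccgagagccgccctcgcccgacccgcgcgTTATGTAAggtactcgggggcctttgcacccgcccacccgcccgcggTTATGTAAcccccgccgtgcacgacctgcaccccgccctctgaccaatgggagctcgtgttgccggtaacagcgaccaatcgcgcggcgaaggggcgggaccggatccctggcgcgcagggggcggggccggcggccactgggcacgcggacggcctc
Arntl: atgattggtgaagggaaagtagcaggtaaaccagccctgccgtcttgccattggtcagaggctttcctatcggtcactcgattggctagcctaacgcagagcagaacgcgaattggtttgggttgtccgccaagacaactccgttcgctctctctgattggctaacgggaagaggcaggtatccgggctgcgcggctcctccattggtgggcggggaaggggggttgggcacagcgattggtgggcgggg

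The Per1 window held an E-box starting 166 bases before the start and a D-box 24 bases before it. The Cry1 window held an E-box 60 bases before its start, and the Per3 window held a D-box at 205 and again at 158 bases before its start. Counting either strand, 2 of the 12 windows of these genes held an E-box, against 7.84% of the 21263 windows in the table, and 2 of 12 held a D-box, against 3.09%. The nuclear receptor half-site AGGTCA was in 3 of the 12, each of another gene, against 14.7% of all windows, and it is printed with its neighbouring bases because ERα binds pairs of it. PR binds a different half-site. Capitals mark the half-site or its reverse complement. It lay 137 bases before the Per1 start shown above, 119 bases before the start of Clock that is listed farthest inside the gene, and 31 bases after a second listed start of Arntl.
Per1 half-site: gtgacacagcccTGACCTcagtgggggcca
Clock half-site: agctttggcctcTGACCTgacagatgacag
Arntl half-site: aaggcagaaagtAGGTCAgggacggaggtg

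No window of the 8 genes held the palindromic estrogen response element, which contains most of the half-site and was in 0.0517% of all windows. None held the palindromic progesterone response element (0.442% of all windows) or the cyclic AMP response element TGACGTCA (2.23%). These are matches of letters in windows of 300 bases, and they describe neither binding nor the sequence of more distant peaks.

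Every clock gene had linked peaks of both receptors in every library. Among the activators, Arntl had 22 and 22 ERα peaks in the WT replicates and 23 and 24 in Y541S, and 20 and 24 PR peaks in WT and 32 and 24 in Y541S. Clock had fewer, 8 and 6 ERα peaks in WT against 15 and 16 in Y541S, and 12 and 11 PR peaks in WT against 22 and 16 in Y541S. At Clock the genotypes did not overlap for either receptor, and both Y541S libraries had more peaks. Of the other 9 genes only Cry2 shared this. Over all genes tested, both Y541S libraries had more peaks than both WT libraries in 47.3% for ERα and 28.6% for PR. The share of genes with this order for both receptors was not computed, so whether it sets Clock and Cry2 apart from other genes is not known. Npas2 ranged from 15 to 29 peaks with overlapping genotypes for both receptors.

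Among the repressors, Per1 had 18 and 18 ERα peaks in WT and 24 and 22 in Y541S, and 17 to 22 PR peaks with overlap. Per2 had 15 to 23 peaks over the 8 libraries, and Per3 had 7 to 15, with overlapping genotypes for both receptors in either gene. Cry1 had 7 and 9 ERα peaks in WT against 15 and 14 in Y541S, while its PR peaks numbered 10 and 7 in WT and 5 and 7 in Y541S. Cry2 had 12 and 14 ERα peaks in WT and 15 and 18 in Y541S, and 16 and 16 PR peaks in WT and 21 and 20 in Y541S. Dbp, the output gene, had 10 to 15 peaks, and Bhlhe40 had 9 to 17. The plot of linked peaks by gene shows these numbers.

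**Figure D1:**
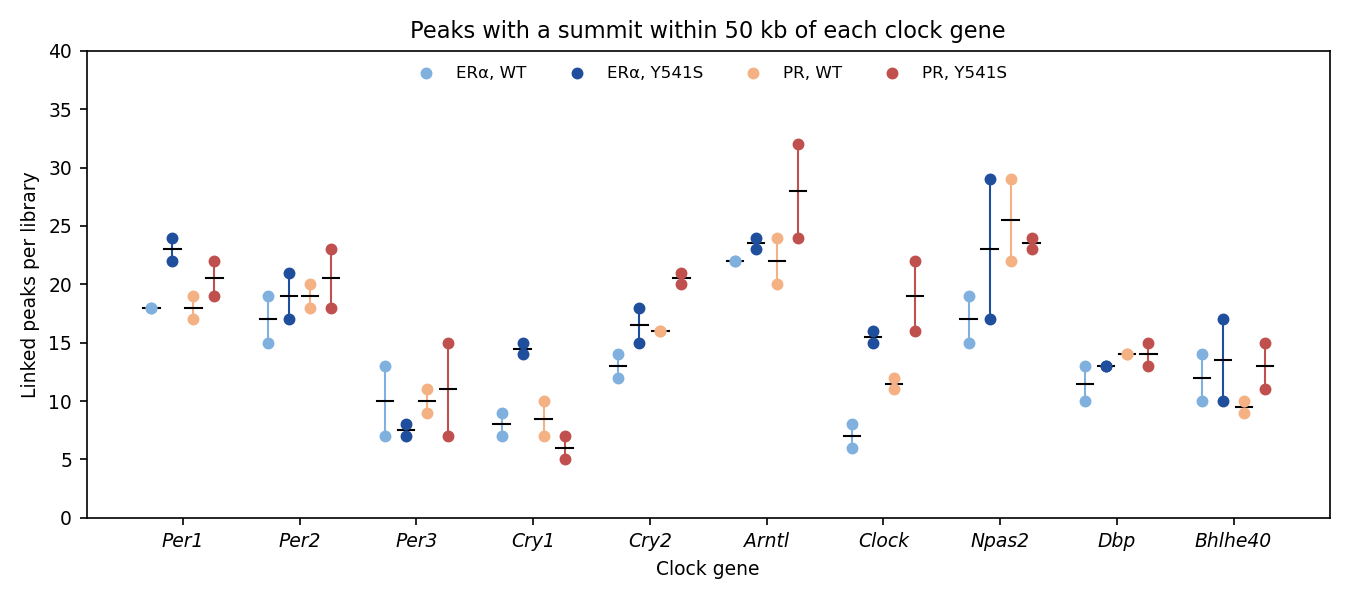
Number of peaks with a summit within 50 kb of each clock gene (y axis, peaks per library) for the 10 genes (x axis). Each point is 1 library, vertical lines join the 2 replicates of a group and short bars mark their mean; for Clock the ERα points of WT (6 and 8) lie below those of Y541S (15 and 16).

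Both Y541S libraries had more linked ERα peaks than both WT libraries at 5 of the 10 clock genes (Per1, Cry1, Cry2, Arntl and Clock). Of all genes with enough peaks to be tested, 47.3% did so, and 1.12% had the reverse order. For PR the count was 3 of 10 (Cry2, Clock and Bhlhe40), against 28.6% of all genes, with 3.65% in the reverse order. The clock genes were therefore near the background for both receptors, and the Y541S lists were longer than the WT lists of the same receptor.

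For this reason the numbers were also taken per 100000 peaks of the list and tested on the log2(value + 1) scale with limma, with Benjamini-Hochberg adjustment over 17677 genes. Between the receptors, Cry1 had the largest difference of the 10 genes, a log2 difference of PR minus ERα of -0.71 (SE 0.22, adjusted p = 0.148 by limma). Cry1 had on average 12.7 linked ERα peaks and 7.71 linked PR peaks per 100000. Before this scaling, its ERα peaks outnumbered its PR peaks in Y541S (15 and 14 against 5 and 7). In WT the receptors overlapped (7 and 9 against 10 and 7). At the other end was Clock, with a log2 difference of 0.29 (SE 0.17, adjusted p = 0.399 by limma). None of the 10 genes was called at an adjusted p under 0.05, while 1.25% of all genes were, and 1 of the 10 (Cry1) had an unadjusted p under 0.05, against 18.4% of all genes. An exact two-sided permutation of the receptor within genotype, with 36 arrangements, gave its smallest possible p of 0.056 for Per1, with 24.0 ERα and 19.7 PR peaks per 100000, and for Clock, with 12.4 and 15.3. It gave 0.111 for Cry1 and 0.167 or more for the other 7 genes. The design cannot reach p under 0.05 in that test.

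Between the genotypes, 0 of the 10 clock genes were called by limma in ERα, where 0.0509% of all genes were, and 0 in PR, where 0.00566% were. In ERα, Y541S minus WT ran from a log2 difference of -0.90 at Per3 (SE 0.34, adjusted p = 0.318 by limma) to 0.49 at Clock (SE 0.24, adjusted p = 0.403). Per3 and Arntl were the 2 of 10 with an unadjusted p under 0.05, against 13.7% of all genes, and the value of Arntl was -0.52 (SE 0.23, adjusted p = 0.361 by limma). The median over the 10 genes was -0.35, against -0.14 over all genes tested. Without division by list length the median of all genes moved to 0.42 and that of the 10 genes to 0.25, Arntl stood at 0.09 and Clock at 1.06 (adjusted p = 0.0682 by limma), and 9 of the 10 genes were above 0, against 2 of 10 with the division, so the direction for most clock genes depended on this scaling. In PR the values ran from -0.69 at Cry1 to 0.40 at Clock, with adjusted p = 0.9998 for all 10 by limma. An unadjusted p under 0.05 was found for 0 of the 10, against 4.63% of all genes, and the median over the 10 was -0.14, against -0.05 over all genes, with 4 of the 10 above 0. Without division by list length these medians were 0.14 and 0.21, with 7 of 10 above 0, and the value of Cry1 turned to 0.91 among peaks with a −log10 p of at least 5. The genotype effects did not differ detectably between the receptors: the interaction term called no gene, 0 of the 10 and 6.07% of all genes (1073) had an unadjusted p under 0.05, and the smallest adjusted p of the 10 genes was 0.798, at Cry1.

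Peaks of the 4 libraries of a receptor that overlapped were merged into regions, and regions were classed by which libraries held a peak. ERα had 326 regions at the clock genes, of which 55 (16.9%, 95% Wilson interval 13.2 to 21.3%, for counting error only) had a peak in all 4 libraries, against 9.53% of the regions linked to any coding gene. PR had 308, of which 70 (22.7%) were in all 4 libraries, against 20.3%. Regions seen in a single library made up 64.4% of the ERα regions and 51.3% of the PR regions, against 70.0% and 52.7% over all coding genes. Each of the 10 clock genes had at least 1 region in all 4 libraries of either receptor, as did 72.4% of all coding genes for ERα and 78.2% for PR. Per1 had the most for ERα, 11, and Cry1 the fewest, 1. For PR, Per1, Per2, Cry2, Arntl and Npas2 had 10 each, and Cry1 again had the fewest, 2.

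Regions with a peak in both Y541S libraries and no WT library numbered 10 for ERα (3.07%), against 4.45% of all regions linked to coding genes. They lay at 8 genes, all but Arntl and Bhlhe40, where 49.4% of coding genes had one, and Npas2 had 3. The reverse class, in both WT and no Y541S library, had 4 ERα regions (1.23%, against 0.662%), 1 each at Per3, Arntl, Npas2 and Dbp. Genes with such a region made up 11.5% of all coding genes. For PR, 24 regions were in both Y541S and no WT library (7.79%, against 6.59%), at all clock genes but Cry1 (55.2% of coding genes had one), and 1 region was in both WT and no Y541S library (0.325%, against 0.594%; 9.64% of coding genes had one). Clock alone held 6 of the 24, while it had 4 PR regions in all 4 libraries. For both receptors the shares of the 2 genotype classes were thus near those of all coding genes.

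**Figure D2:**
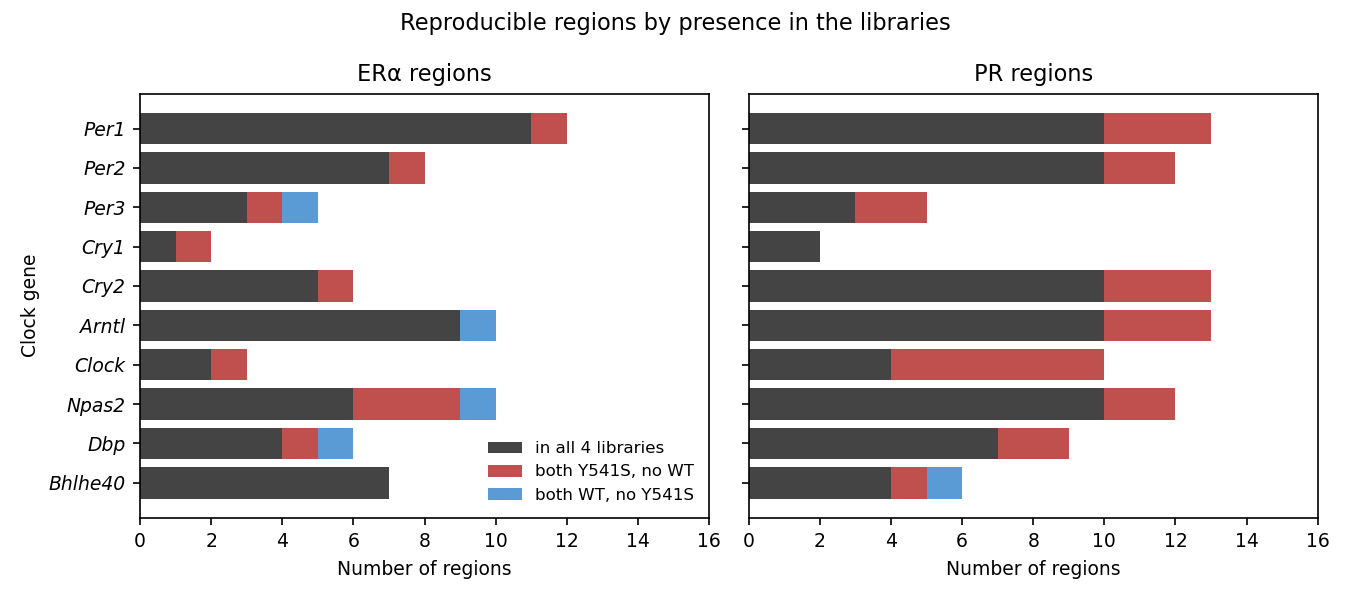
Number of regions (x axis) at each clock gene (y axis) for ERα (left) and PR (right), stacked by presence: a peak in all 4 libraries of the receptor (dark), in both Y541S and no WT library (red), or in both WT and no Y541S library (blue). Regions with any other presence, among them those in a single library, are not drawn. Of the classes drawn, regions in all 4 libraries are the most numerous at every gene but Cry1 for ERα (1 and 1) and Clock for PR (4 and 6).

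Some of the regions with a peak in 1 genotype only are described by their rank. Rank is given here as the place of a peak by the deposited p-value, in percent of its own list, so that a small number is a strong peak. Among the ERα regions in Y541S only, the strongest lay just upstream of Per3, at chr4:151044910-151045470 and 0.377 kb before its start. It was inside Gm38529 and had ranks of 10.9% and 9.81% in the Y541S replicates. Both WT libraries had a peak beside it, at chr4:151043257-151044668, ranked at 45.3% and 55.5%, so the region around the Per3 start was occupied in both genotypes. A region at chr10:85102287-85102553, inside Fhl4 and 29.3 kb from Cry1, ranked at 23.7% and 15.98%. In the window of Dbp, a region inside Sult2b1, 49.4 kb from Dbp, was in Y541S only for both receptors. At chr7:45759104-45759956, it ranked at 50.2% and 29.7% in the Y541S ERα replicates and at 24.2% and 25.3% in those of PR. The PR region in WT only lay inside Bhlhe40, at chr6:108665392-108665929, with ranks of 21.6% and 33.7% in the WT replicates.

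Where a region was in all 4 libraries, the genotypes were compared by rank, as a description, because lists of different length share no scale. Both Y541S ranks were stronger than both WT ranks in 20 of the 55 ERα regions, against 37.9% of all such regions, and both WT ranks were stronger in 4, against 4.90%. For PR the counts were 23 of 70, against 25.3%, and 7, against 10.6%.

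With the 8 libraries merged together, 471 regions lay at the clock genes, 188 of them inside the span of a clock gene (39.9%). Another coding gene was closer than the clock gene for 198. Of the 471 regions, 35 had a peak in all 8 libraries (7.43%, 95% Wilson interval 5.39 to 10.2%), against 4.12% of all regions linked to coding genes. Per1 had 8 of them, Arntl 5, Per2, Cry2 and Npas2 4 each, Dbp 3, Per3, Cry1 and Bhlhe40 2 each and Clock 1. Each clock gene had at least 1, as did 64.8% of coding genes. Of the 35 regions, 11 were inside a clock gene, 10 were inside another gene and 17 were closer to another gene, so a share of them cannot be tied to the clock gene by position. In WT, 41 regions had a peak in both replicates of both receptors, which was 60.3% of the 68 ERα regions and 53.2% of the 77 PR regions. Over all coding genes these shares were 57.6% and 34.5%. In Y541S, 63 regions were shared, 74.1% of 85 ERα regions and 49.2% of 128 PR regions, against 64.3% and 39.9%.

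**Figure D3:**
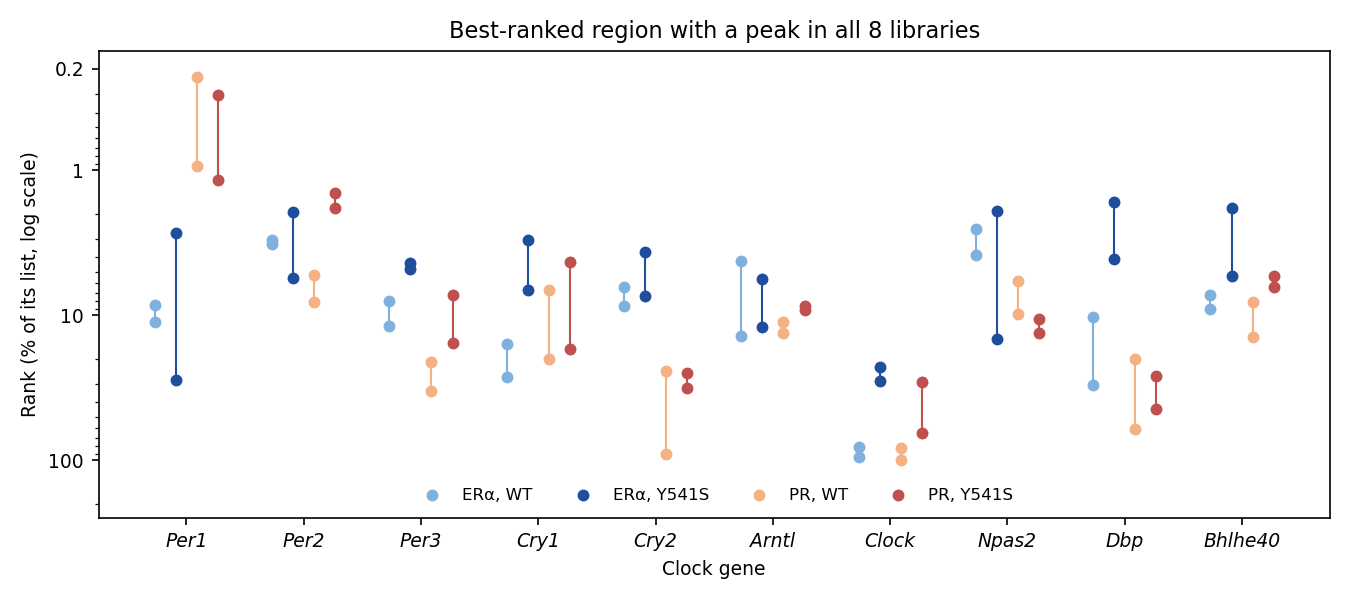
Rank of the peak (y axis, percent of its list, log scale, strong peaks at the top) in the region of each clock gene (x axis) that ranked best among those with a peak in all 8 libraries. Each point is 1 library and lines join replicates; the PR ranks of Per1 lie between 0.229% and 1.18%, and the WT ranks of Clock for both receptors lie near the end of the lists.

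The ERα region that ranked best at an activator gene lay at the Arntl start. The region chr7:113206612-113207631 covered the Arntl sequence printed above, with its ERα summit 0.211 kb before a start. Its ERα ranks were 4.45% and 1.08% in WT and 1.295% and 0.513% in Y541S, and the authors' deposited fold enrichments over local expectation were 6.21, 9.04, 9.47 and 10.8. Its PR ranks were 59.3% and 13.1% in WT and 18.5% and 14.3% in Y541S. All 4 ERα libraries thus ranked it ahead of all 4 PR libraries. The PR region that ranked best at Arntl was another one, chr7:113183755-113184342, inside the gene and 23.4 kb before the nearer start, with ranks of 6.58%, 3.61%, 3.53% and 5.61% and an ERα peak in 1 library only.

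At Clock the receptors also differed in place. The strongest PR region, chr5:76238890-76239664, lay inside the gene 64.2 kb after a start, with PR ranks of 0.292% and 0.944% in WT against 0.162% and 0.204% in Y541S. The deposited PR folds there were 14.8, 15.0, 18.2 and 19.3. ERα had a peak there in 3 of 4 libraries, with ranks of 86.1% in WT replicate 1 and 13.6% and 45.1% in the Y541S replicates. At the Clock start, chr5:76304605-76305370, the order was the reverse. ERα ranked at 17.98% and 14.3% in WT and 9.08% and 6.01% in Y541S. PR had no peak inside this region in WT replicate 1 and ranks of 34.3 to 79.3% in the other libraries. Clock had 1 region with all 8 libraries, chr5:76183199-76184100, 26.0 kb from the gene and 0.032 kb from Tmem165. Its ERα ranks were 95.4%, 81.4%, 28.6% and 22.8%, and its PR ranks were 82.9%, 99.9%, 64.6% and 29.0%.

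Npas2 had no summit of either receptor within 1 kb of its start in any library. Its best region with all 8 libraries, chr1:39405180-39405698, lay 42.1 kb from the gene inside Tbc1d8, with ERα ranks of 2.55%, 3.84%, 1.91% and 14.7% and PR ranks of 5.78%, 9.81%, 13.2% and 10.7%. The PR region that ranked best, chr1:39377835-39378404, was also inside Tbc1d8, with ranks of 1.53%, 2.95%, 1.34% and 2.16% and an ERα peak in Y541S replicate 1 only. The strongest binding in the window of Npas2 was therefore inside a neighbouring gene.

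**Figure D4:**
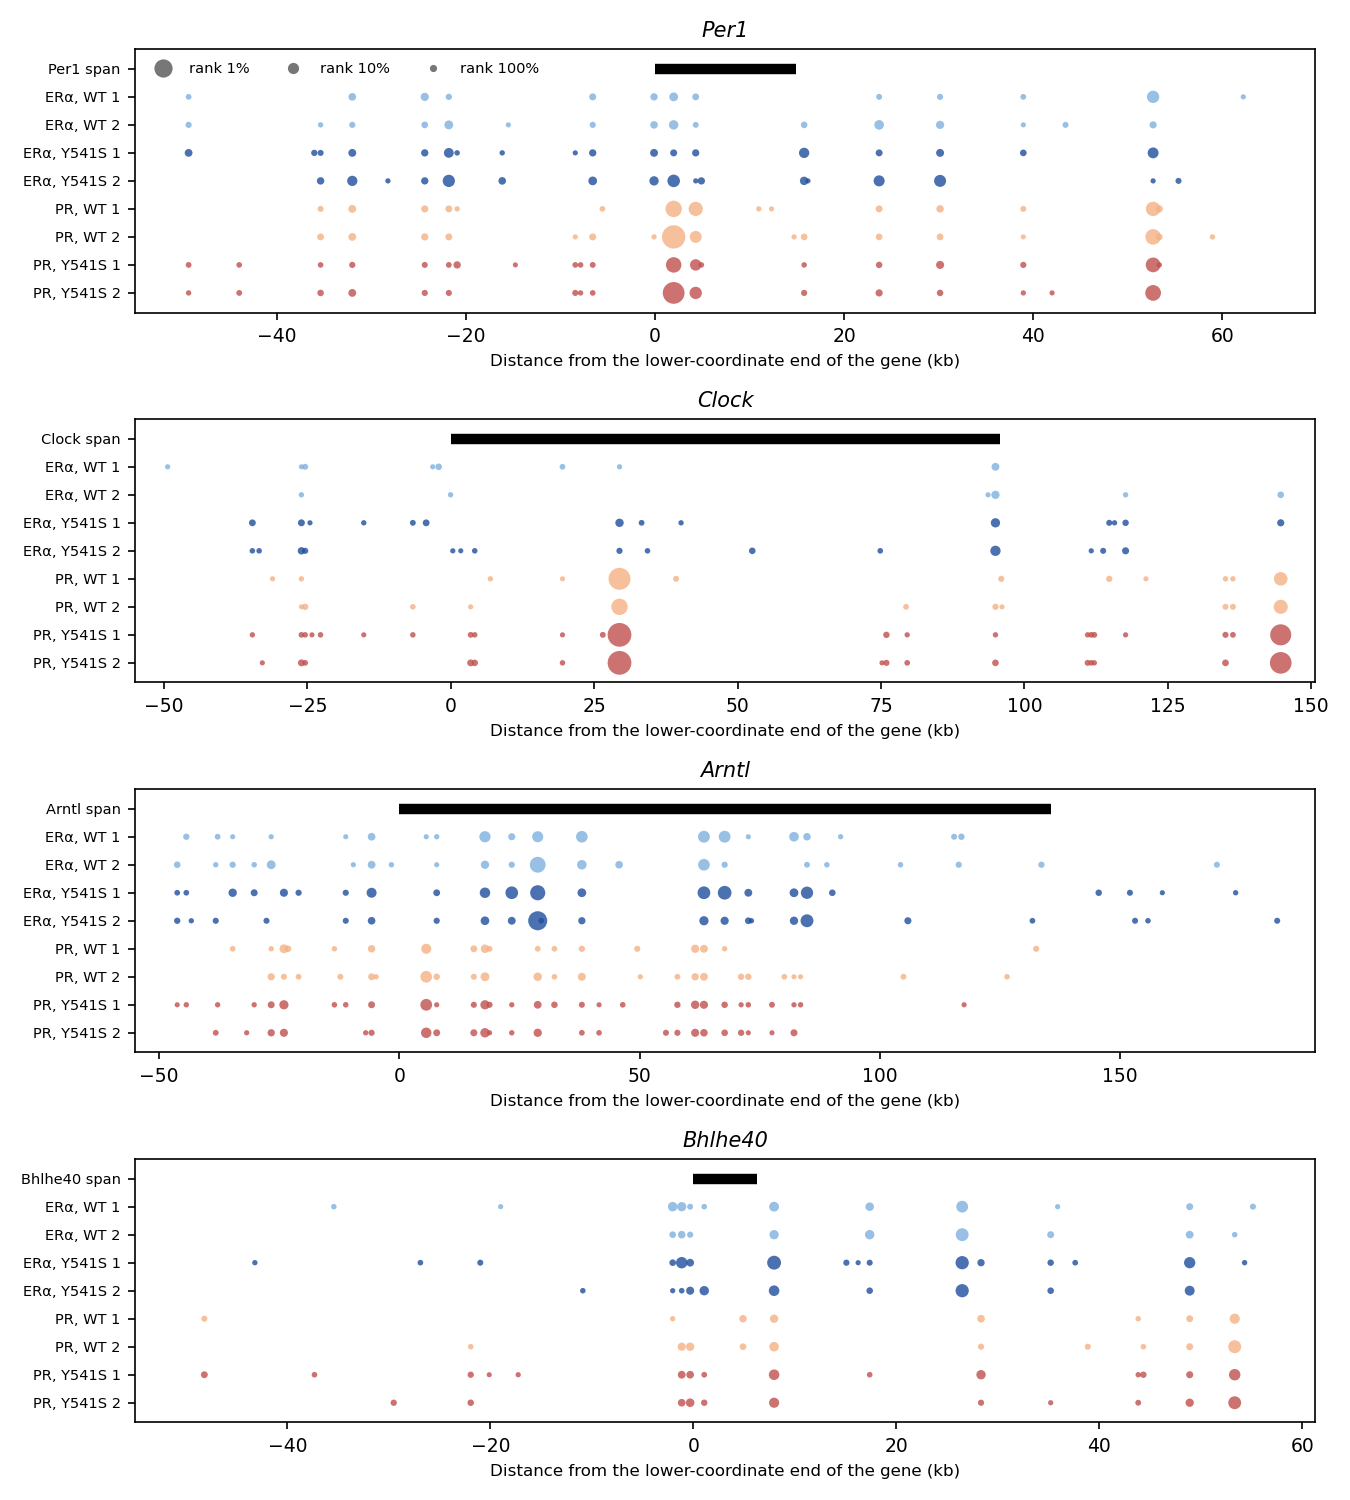
Regions merged over the 8 libraries near Per1, Clock, Arntl and Bhlhe40, with 1 row per library and the gene span as a black bar on top. The x axis is the distance from the lower-coordinate end of the gene in kb. A dot marks a library with a peak in the region. It is drawn in every row at the summit of the region's best-ranked peak, so rows align by construction. Larger dots are peaks with a better rank in their list; at Clock the largest PR dots lie inside the gene, 29.4 kb from that end, where ERα has small dots or none.

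Among the repressors, Per1 carried PR peaks near the top of the lists. The region chr11:69096785-69097413, inside the span of Per1 and 1.88 kb before the nearer listed start, had PR ranks of 0.929% and 0.229% in WT against 1.18% and 0.302% in Y541S, with deposited folds of 8.09, 9.60, 9.37 and 9.55. Its ERα ranks were 11.2%, 8.55%, 28.2% and 2.73%, with folds of 3.39, 3.45, 2.55 and 4.22. At the start itself, chr11:69098637-69099768, which covers the Per1 sequence with its E-box and D-box, the PR ranks were 1.66%, 3.32%, 3.96% and 2.92%. The ERα ranks there were 30.6%, 55.7%, 24.8% and 87.8%. At both regions the 4 PR libraries ranked ahead of the 4 ERα libraries, and the genotypes overlapped within each receptor. A further PR region in the window, chr11:69147295-69148053, ranked at 1.56%, 1.15%, 1.42% and 1.10%, but lay inside Aloxe3, 37.8 kb from Per1.

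At Per2 the 2 strongest regions, both inside the gene, were bound by both receptors. The region chr1:91445967-91446752 had ERα ranks of 3.22%, 3.05%, 1.93% and 5.54% and PR ranks of 5.29% and 8.15% in WT against 1.83% and 1.44% in Y541S. The region chr1:91436071-91437049 had ERα ranks of 9.13%, 7.38%, 6.57% and 13.9% and PR ranks of 4.15% and 2.67% in WT against 2.26% and 1.44% in Y541S. In percent of the list, the Y541S libraries ranked ahead of the WT libraries for PR in both of them, while the ERα ranks of the genotypes overlapped. By place alone, without division by list length, the PR order held only at the first region. At the second, WT PR replicate 2 stood at place 2497 and Y541S PR replicate 1 at place 2567. A region 15.0 kb from Per2, chr1:91400725-91401503, had PR peaks in all 4 libraries, ranked at 7.02%, 7.87%, 6.895% and 13.99%, and no ERα peak.

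Of the Per genes, Per3 had the weakest best PR region. Its best region with all 8 libraries, chr4:151057316-151058436, lay 13.5 kb upstream of Per3 and inside Gm38529, with 3 coding genes closer than Per3. It ranked at 11.9% and 7.99% for ERα in WT and 4.82% and 4.37% in Y541S. Its PR ranks were 33.5% and 21.0% in WT and 15.6% and 7.25% in Y541S. In percent of the list, the Y541S libraries ranked ahead for both receptors there. By place in the list, WT ERα replicate 2 (5153) and Y541S ERα replicate 1 (5150) were nearly level. The ERα region that ranked best at Per3, chr4:150964639-150966135, was 31.9 kb beyond its far end and closer to Tnfrsf9, at 19.0 kb. Its ranks were 3.28%, 2.97%, 5.95% and 6.29%, and here the WT libraries ranked ahead.

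The start of Cry1, chr10:85184204-85185807, which covers the sequence printed above, was bound in all 8 libraries. ERα ranked at 26.7% and 15.7% in WT and 6.71% and 3.05% in Y541S, so the genotypes did not overlap. The deposited ERα folds were 3.58, 4.14, 5.56 and 6.42. PR ranked at 19.997% and 6.68% in WT and 17.1% and 4.29% in Y541S, with overlap, and replicate 2 was ahead of replicate 1 in either genotype. With the ERα libraries merged alone, no other region of Cry1 had a peak in all 4. The second Cry1 region with all 8 libraries, chr10:85127620-85128603, was joined by PR peaks from ERα peaks that did not overlap in all 4 libraries.

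Cry2 had adjacent regions with opposite orders. The region over its start, chr2:92433854-92434699, had ERα ranks of 8.70%, 6.38%, 7.43% and 3.67% and PR ranks of 90.0%, 24.2%, 32.0% and 25.2%. The region chr2:92432435-92433199, 1.16 kb into the gene, had PR ranks of 0.958%, 1.02%, 1.61% and 0.984%, with folds of 11.1, 10.8, 12.3 and 12.4, and an ERα peak in Y541S replicate 1 only, ranked at 37.8%. The PR ranks of the 2 genotypes differed little at that region, 0.958 to 1.02% in WT and 0.984 to 1.61% in Y541S.

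Of the output gene and the E-box repressor, Dbp had a region over its start in all 8 libraries, chr7:45703987-45705726, with ERα ranks of 30.8%, 11.3%, 37.6% and 3.28% and PR ranks of 22.6%, 32.7%, 37.2% and 35.9%. The replicates of ERα were as far apart as the genotypes. The ERα region that ranked best in its window, chr7:45717478-45718600, was inside Rpl18, 7.85 kb from Dbp, with ranks of 30.5% and 10.3% in WT against 4.08% and 1.66% in Y541S. The window of Dbp holds 9 other coding genes, the most of the 10, and that of Bhlhe40 holds none.

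Bhlhe40 had the clearest case of ERα without PR. The region chr6:108686848-108687523, 20.2 kb from the gene, had ERα ranks of 3.46% and 2.45% in WT against 2.17% and 2.21% in Y541S, with deposited folds of 7.57, 7.23, 8.63 and 8.50, and no PR peak in any library. A region with the reverse pattern in strength, chr6:108713741-108714301, 47.0 kb away, had PR ranks of 6.35%, 2.38%, 3.94% and 2.46% and an ERα peak in WT replicate 2 only. Nearer to the gene, at 1.66 kb, chr6:108668235-108668929 was bound in all 8 libraries, with ERα ranks of 7.28%, 9.10%, 1.82% and 5.36% and PR ranks of 14.1%, 8.07%, 5.401% and 6.36%. Over the 10 genes, 3 regions had ERα in all 4 libraries and no PR peak, at Per2, Arntl and Bhlhe40 (0.637%, against 0.491% of all linked regions). The reverse pattern was found for 9 regions (1.91%, against 2.58%).

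The order of the receptors was compared in the 35 regions with all 8 libraries. In 5 of them all 4 ERα libraries ranked ahead of all 4 PR libraries, against 20.2% of all such regions, and in 5 the PR libraries ranked ahead, against 9.75%. The ERα-ahead regions were 3 at Arntl, 1 at Cry2 and 1 at Npas2. The PR-ahead regions were 3 at Per1, 1 at Per2 and 1 at Cry2, the last at chr2:92372615-92373370, 30.8 kb from the gene. That region had 5 coding genes closer to it than Cry2, the nearest being Pex16 at 1.79 kb. Its PR ranks were 7.91%, 3.32%, 3.04% and 2.05%. None of the 5 regions of Arntl was PR-ahead and none of the 8 of Per1 was ERα-ahead. No test of the difference between these genes was made. In the other 25 regions the ranks of the receptors overlapped.

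**Figure D5:**
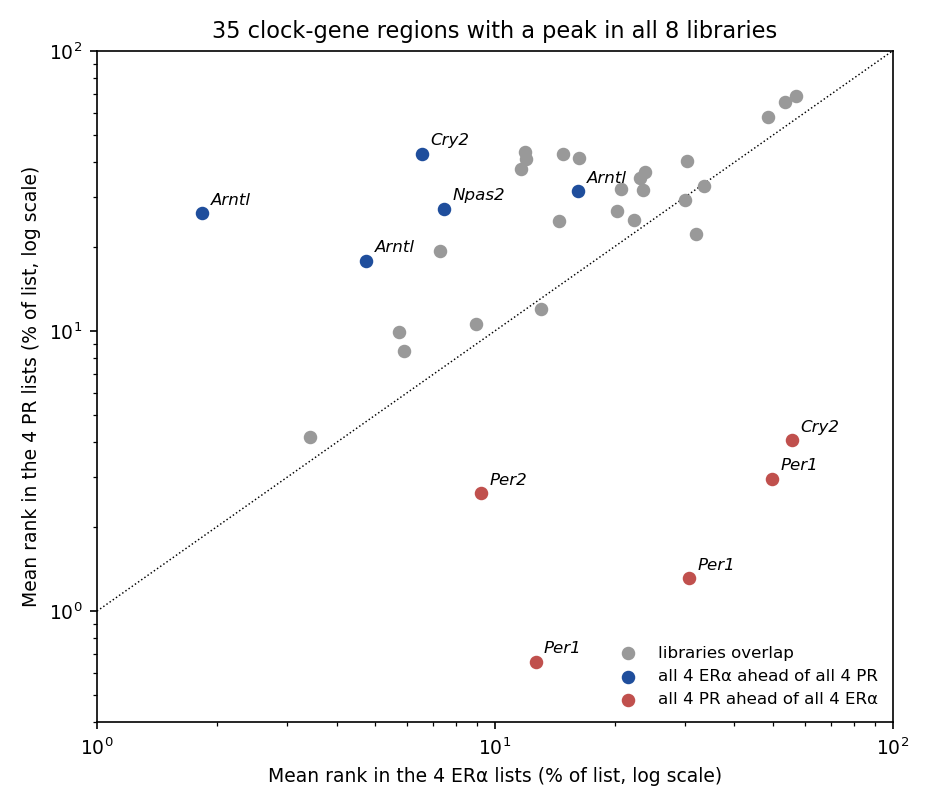
Mean rank over the 4 ERα lists (x axis) against mean rank over the 4 PR lists (y axis), in percent of the list on log scales, for the 35 clock-gene regions with a peak in all 8 libraries. Blue points are the 5 regions where all ERα libraries ranked ahead of all PR libraries, red points the 5 with the reverse order, and grey points the rest; the dotted line marks equal ranks.

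Of the 8 genes with a start in the table, 7 had an ERα summit within 1 kb of a start in all 4 libraries, all but Npas2, against 41.5% of the genes with a start. For PR, 6 did, against 37.2%. Clock was short of this by 1 library for PR, WT PR replicate 1, and Npas2 had none. In that library a peak at chr5:76305743-76305922, ranked at 47.9%, had its summit 1.036 kb before a Clock start, just beyond the limit. The motifs of Per1 and Cry1 printed above lay in merged regions with a peak in every library. At Per3 the merged region also covered the D-boxes. The ERα peaks in it lay on either side of the D-boxes: those of both genotypes ended by position 151044668, and the further Y541S peaks began at 151044910. The D-boxes were thus outside the ERα peaks of both genotypes. Arntl, Cry2 and Dbp, which were bound at the start in the same way, had neither motif in their windows.

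A second list held 18 other clock genes, among them the nuclear receptors Nr1d1, Nr1d2 and Rora, the D-box factors Tef, Hlf and Nfil3, and the kinases and ubiquitin ligases that act on PER and CRY. Of these, 17 had a region in all 8 libraries, against 64.8% of coding genes, and the exception was Rorb. Tef had the most, 6, followed by Nr1d1 and Ciart with 4 each, and Rora, Bhlhe41, Csnk1e and Fbxw11 had 3 each. The median number per gene was 2, against 3.5 for the 10 core genes. Of the 826 regions at these 18 genes, 43 (5.21%) were in all 8 libraries, against 4.12% over all coding genes. Regions in Y541S only were found at 14 of the 18 for ERα (49.4% of coding genes) and 13 for PR (55.2%). Regions in WT only were found at 3 for ERα (11.5%) and 2 for PR (9.64%).

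Markers of the cell types in a mammary gland were read in the same way. A region in all 8 libraries was found at 3 of 5 hormone-sensing luminal, 2 of 3 luminal progenitor, 3 of 4 basal and myoepithelial, 3 of 4 adipocyte, 1 of 2 endothelial and 2 of 3 immune marker genes. With 64.8% of coding genes having such a region, these all-8 counts do not set any of the cell types apart. Regions in all 4 libraries of 1 receptor differed more. Their median per gene was 10 for PR and 2 for ERα at hormone-sensing luminal genes, although Cited1 had 0 of either. At adipocyte genes the medians were 2 and 4. The other lists had 4.5 to 6 for PR and 2 to 3 for ERα, and all coding genes 3 and 2. The lists are short, and these differences were not tested. The part of each cell type in the peaks of the clock genes was not tested.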

How the data were processed

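Chromatin of fixed whole glands was sheared to 300 to 500 bp, and 30 µg was precipitated with 4 µg of antibody, per the labels' protocols. The authors deposited a peak list for every library, with coordinates on mm10 (per the submitters' processing notes). The names of the aligner and the peak caller are not given in the sources used here. Deposited per peak were a score, the ratio of summit coverage to local expectation (fold enrichment) and −log10 values of p and q. These are the authors' own, are not normalised across lists, and were used for ranking and filtering inside 1 list at a time. Whole-number coverage was recovered from the deposited fold and −log10 p of at least 99.8% of the peaks in every list, with a tolerance of 1e-04.

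Peaks overlapping by at least 1 bp were merged into regions, ranked by their best peak per library. Linked peaks per 100000 were tested with limma 3.58.1 (pseudocount 1, mean of at least 2 linked peaks, 4 group means, Benjamini-Hochberg threshold 0.05). On simulated data it recovered 94% of 100 genes changed 4-fold between the receptors and 3% of those changed 2-fold, with 7 false calls over 17602 genes. The simulated replicates differed by counting error only, and the changed genes were drawn from those with more linked peaks than the filter required. These figures therefore do not give the power or the false calls on the real libraries, where receptor calls ran from 0 to 626 with 1 library left out. A permutation of 2 against 2 libraries cannot go below 0.33.

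Genes and starts came from RefSeq tables of GRCm38.p6. For each clock gene, the text names the best-ranked region in all 4 libraries of each receptor and the best region in all 8. Of the regions in 1 genotype only some are named, and none of the ERα regions in WT only. The Y541S-only and WT-only regions printed in full, regions at starts and regions with 1 receptor were chosen after their values were seen. The clock genes, the second clock list and the marker lists were chosen with earlier results of these data known. Alternatives were stricter p or q limits, the 20000 strongest peaks, scaled coverage, an overlap of 50%, windows of 10 and 100 kb, other fits, and leaving out each library.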

Additional observations from a re-analysis of the deposited data

How the results depend on the processing

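Among the 20000 strongest peaks of each list, ERα regions in Y541S only numbered 4, in WT only 2 and in all 4 libraries 16; PR regions in Y541S only numbered 0 and in all 4 libraries 22, and regions in all 8 libraries 6, at 5 genes. There, starts bound in all 4 libraries fell to 4 genes for ERα and 2 for PR. At −log10 p of at least 5, the ERα regions in WT only numbered 2, ERα regions in all 4 libraries 27 and regions in all 8 18; ERα regions in WT only numbered 0 at −log10 q of at least 1.3 and 1 with scaled coverage. Within 10 kb, the ERα counts were 6 in Y541S only, 2 in WT only and 35 in all 4, the PR counts 11 in Y541S only and 36 in all 4, and 23 were in all 8. Within 100 kb, ERα had 16 in Y541S only and PR had 108 in all 4.

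Leaving out 1 library loosens a class, since a peak in the remaining library then suffices. ERα counts then ran from 18 to 77 in Y541S only, 5 to 52 in WT only and 53 to 68 in all libraries; PR counts from 32 to 68, 1 to 56 and 69 to 96; and regions in all libraries from 35 to 44.

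Genes called between the receptors numbered 706 (p limit), 885 (strongest peaks), 393 (not divided by list length), 121 (pseudocount 0.5), 32 (10 kb) and 397 (100 kb), and 0 to 626 with 1 library left out: 0 and 6 when the Y541S PR library left out was replicate 1 or 2, respectively. Genes called between the genotypes in ERα numbered 23 (p limit), 34 (q limit), 0 (no filter on the mean), 378 (not divided), 30 (pseudocount), 5 (10 kb) and 44 (100 kb), and 0 to 120 with 1 library left out. In PR they numbered 0 with the p limit, the strongest peaks, scaled coverage, no filter, the replicate block and 10 kb, and 0 to 1 with 1 library left out. The interaction called 10 genes within 100 kb and 0 with any library left out. Of 19 settings, the p limit was the only one in which a clock gene was called, Cry1 between the receptors (log2 -1.03, adjusted p = 0.0412 by limma). The PR genotype difference of Cry1 reversed to 0.91 with the p limit and 0.0513 with scaled coverage. The cause was not tested.

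Deviations of same-numbered libraries correlated at -0.004 to 0.140 over 6 pairs of groups, so the numbers were not shown to pair the libraries. With a replicate block, 276 genes were called between the receptors, 12 between the genotypes in ERα, 0 in PR and 0 for the interaction. A missing peak may mean signal under the limit of a list, and depth differed between libraries.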

Other observations

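Among regions chosen after their values were seen, 1 in the window of Clock stood out for PR. It lay at chr5:76354057-76354823, inside Nmu and 48.9 kb from Clock, and ranked at 1.99% and 1.71% in WT PR and at 0.345% and 0.309% in Y541S PR. The deposited PR folds were 11.7, 15.5, 21.6 and 22.5. ERα had a peak there in WT replicate 2 and Y541S replicate 1 only, ranked at 35.9% and 25.4%. The Clock window thus held 2 PR regions in the strongest 2% of every list, the other being the intragenic one described above.

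A region inside Arntl with ERα in all 4 libraries and no PR peak, chr7:113263127-113263458, ranked at 21.6% and 56.2% in WT and at 2.97% and 2.44% in Y541S. The deposited folds were 3.86, 3.27, 7.09 and 7.56. The genotypes did not overlap, and no test between lists was made.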
